A study of Mus musculus with 18 samples.

Results

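The 36 genes described here encode the chaperones and folding enzymes of the endoplasmic reticulum, the channel through which proteins enter it, the machinery that removes misfolded proteins from it, and the sensors and transcription factors of the unfolded protein response. The genes were chosen by symbol, and each was represented by 1 probe set, the one with the highest mean log2 level over 18 arrays. A symbol match was found for all 36, with Ero1lb listed under its current symbol Ero1b, and all 36 passed the filter on dim genes. They make up 36 of 14201 genes tested and of 18193 genes with a named probe set.

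The RNA was that of whole liver, taken at 62 weeks of age from C57BL/6J males, with 3 arrays in each of 6 groups and another mouse for each array. From 5 weeks of age the mice ate a diet with 10% fat freely (LF), the same diet reduced by 30% (LF+CR), or the same diet freely with a running wheel (LF+Ex). A diet with 60% fat was given in the same ways (HF, HF+CR and HF+Ex), and every mouse lived alone in its cage. The food of restricted mice was set from what the freely fed mice on that diet ate. Neither the hour of sampling nor whether the mice had eaten is given in the sources used here, so p-values measure the spread between mice without separating these influences.

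Proteins bound for secretion are threaded into the endoplasmic reticulum, folded there by chaperones, glycosylated, joined by disulfide bonds, and sent on or, if they fail to fold, returned to the cytosol for destruction. When unfolded proteins accumulate, the sensors IRE1 (Ern1), PERK (Eif2ak3) and ATF6 start the unfolded protein response, in which spliced XBP1 and cleaved ATF6 raise the transcription of chaperone genes, and ATF4 that of stress genes such as Ddit3. The hepatocyte secretes most plasma proteins and is rich in this compartment. The arrays measured RNA levels, which do not show whether Xbp1 was spliced or ATF6 cleaved.

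Chaperone promoters are known for binding NF-Y, a general factor whose site is the box CCAAT, and ATF6 and XBP1, whose sites hold the box CCACG. Promoter windows from RefSeq (build GRCm38.p6), reaching from 250 bases before to 50 bases after an annotated start, were at hand for 31 of the 36 genes. The other 5 are Manf, Hyou1, Atf6, Derl1 and Sec61a1. Both strands of each window were searched for either box, and the boxes cannot overlap each other. The upstream 250 bases of Calr, Pdia6 and Edem1 are shown because these genes rose under calorie restriction on both diets. Each is written 5′ to 3′ on the strand of the gene, with every CCAAT and CCACG, and their reverse complements ATTGG and CGTGG, in capitals:
Calr (chr8:84846932-84847181, - strand): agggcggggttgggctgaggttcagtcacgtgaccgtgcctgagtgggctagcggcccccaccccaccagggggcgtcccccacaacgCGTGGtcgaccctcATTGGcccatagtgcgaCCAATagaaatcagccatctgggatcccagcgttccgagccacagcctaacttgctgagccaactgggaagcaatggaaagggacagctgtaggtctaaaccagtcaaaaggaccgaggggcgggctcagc
Pdia6 (chr12:17266339-17266588, + strand): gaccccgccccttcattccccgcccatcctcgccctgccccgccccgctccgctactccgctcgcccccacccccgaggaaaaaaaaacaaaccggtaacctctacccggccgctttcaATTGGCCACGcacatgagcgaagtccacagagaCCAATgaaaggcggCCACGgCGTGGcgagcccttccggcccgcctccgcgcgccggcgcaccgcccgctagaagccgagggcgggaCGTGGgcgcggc
Edem1 (chr6:108828391-108828640, + strand): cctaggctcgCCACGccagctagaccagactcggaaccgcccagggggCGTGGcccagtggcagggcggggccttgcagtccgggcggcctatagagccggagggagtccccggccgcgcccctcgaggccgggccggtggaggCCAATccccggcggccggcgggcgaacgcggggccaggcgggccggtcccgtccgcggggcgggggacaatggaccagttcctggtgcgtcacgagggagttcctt

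Calr carried 2 CCAAT and 1 CCACG in these bases, Pdia6 2 and 4, and Edem1 1 and 2. Over whole windows, CCAAT was found for 25 of 31 genes, or 80.6%, and in the promoters of 41.1% of 27025 genes. CCACG was found for 24 of 31, or 77.4%, beside 35.5% of all genes. Other lists of the secretory route and stress response ran from 41.7% to 81.0% for CCACG and from 21.4% to 61.9% for CCAAT. Boxes this short are common, and base composition was not matched. A match is a run of letters and no measurement of binding, and no match says only that these letters are not in this window.

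Across the series, mean array intensity lay between 305 and 308, no arrays were identical, and the correlation of 2 arrays was at least 0.955. The liver was plain from its markers: the summed intensity of 10 hepatocyte genes such as Alb and Ttr lay between 85046 and 98649 on all arrays. Arrays LF+CR 2, HF 1 and HF+Ex 3 stood apart from the rest along the leading principal component (27.0% of the variance). Clps, a pancreatic colipase, was at 215 to 599 on LF 1, LF+CR 1, LF+Ex 3 and HF+Ex 1, and at most 62.1 on the other arrays. Summed plasma and B cell markers were highest on LF+Ex 3 (1659) and HF+Ex 1 (1625), against at most 1155 elsewhere. In whole liver, fewer cells of a type and less RNA per cell cannot be told apart.

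Calorie restriction raised members of this list on both diets, and no member passed the test for running or for dietary fat. The adjustment depends on all genes of a comparison, so these counts do not compare the sizes of the effects. Hsp90b1, for example, was called for restriction at a mean of 0.22 (limma adjusted p = 0.0361). For running it was not called at 0.20 (adjusted p = 0.999). Averaged over both diets, 11 of 36 genes rose with restriction and 0 fell (limma, adjusted p under 0.05 over all genes tested), where 2.06% of all genes rose. The median log2 difference of the 36 was 0.21, and that of all genes was 0.02. In LF+CR against LF, 6 genes rose (2.3% of all genes did), with a median of 0.24 beside -0.01 for all genes. In HF+CR against HF, 5 rose (3.52% of all genes did), with a median of 0.21 beside 0.04. No member fell in either, where 3.27% of all genes fell in LF+CR and 2.55% in HF+CR. Calr, Pdia6 and Edem1 rose in both, though of 20 alternatives each the LF+CR call was lost in 7 for Calr, 12 for Pdia6 and 15 for Edem1, and the HF+CR call in 0, 0 and 11. An F-test over the 6 groups called 12 of 36 genes, where it called 14.3% of all genes.

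The counts depend on single mice. The LF+CR count of 6 fell to 1 without LF 3 and to 2 without LF 1, without LF+CR 2, without the 3 arrays that stood apart, or without the 4 arrays with Clps. The HF+CR count of 5 fell to 2 without HF 1, HF 3 or HF+CR 1, and to 3 without HF 2 or HF+CR 2. The count of 11 fell to 7 without HF+CR 1 and to 7 without the 3 outlying arrays. It was 10 without the 4 arrays with Clps. In 13 of 36 genes every restricted mouse lay above every freely fed sedentary mouse of its own diet, on both diets. This held for 1.84% of all genes. On the single diets it held for 17 genes in LF+CR, beside 8.98% of all genes, and for 20 in HF+CR, beside 17.9%. Some gaps were small: Selenos was at least 1454 in HF+CR and at most 1453 in HF. Sel1l is among the 13, but its other probe sets gave -0.15, 0.35, -0.09 and -0.10 in LF+CR, and 0.11 to 0.34 in HF+CR. The difference lay above 0 for 27 of 36 genes in LF+CR, beside 47% of all genes, for 31 in HF+CR, beside 61%, and for 32 averaged over both diets, beside 58.6%.

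**Figure D1:**
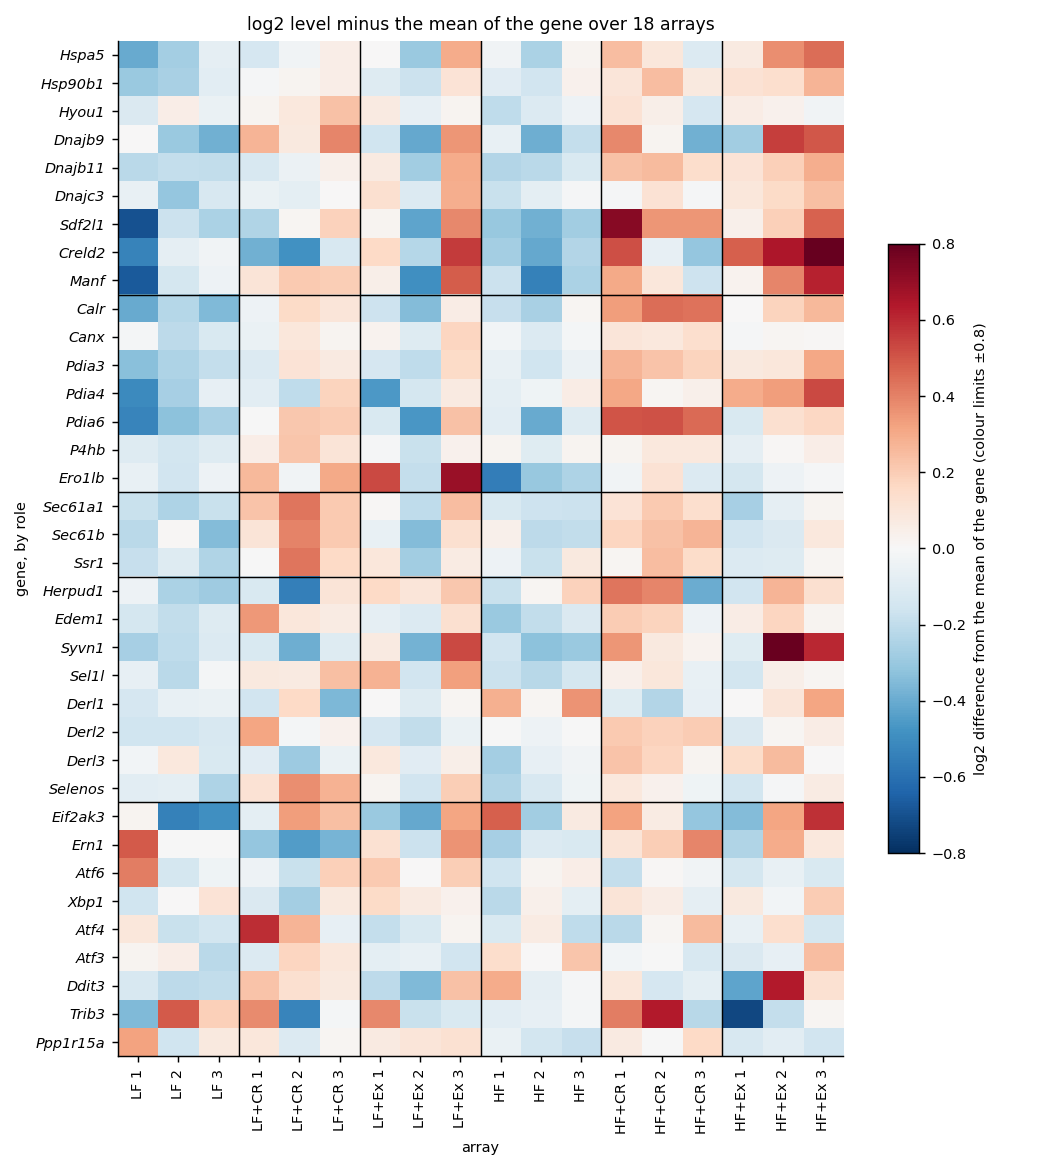
Log2 level of each of the 36 genes on each of 18 arrays, minus the mean of that gene over all arrays (colour scale cut at 0.8 either way). Rows are genes ordered by role, columns are arrays ordered by group, and black lines divide roles and groups. The LF and HF columns are mostly blue in the upper rows, the restricted and running columns mostly red, and columns LF+Ex 2 and LF+Ex 3 differ from each other.

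Of the 7 lectin chaperones and disulfide enzymes, 3 rose in LF+CR and 2 in HF+CR, and all 7 lay above 0 in both. Calr encodes calreticulin, the soluble lectin chaperone that holds glycoproteins while they fold. It read 2366, 2678 and 2458 on the LF arrays and 3046, 3495 and 3365 on the LF+CR arrays. On the diet with 60% fat it read 2763, 2626 and 3173 in HF and 3959, 4283 and 4250 in HF+CR. Restricted and freely fed mice did not overlap on either diet. The difference was 0.40 on the log2 scale on LF (SE 0.101, limma adjusted p = 0.0297) and 0.55 on HF (adjusted p = 0.00578), that is 1.32-fold and 1.46-fold. The mean over both diets, 0.47, had a 95% interval of 0.32 to 0.62 and a limma adjusted p of 0.00119. HF+CR also lay above every HF+Ex array, at 3150 to 3759, though that difference of 0.26 did not pass the test (adjusted p = 0.161).

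Pdia6, a disulfide isomerase that also damps IRE1, had the largest called difference of the list averaged over both diets. It read 891, 1027 and 1074 in LF against 1289, 1502 and 1485 in LF+CR. In HF it read 1215, 974 and 1198, and in HF+CR 1839, 1840 and 1773. All 6 restricted mice exceeded all 6 freely fed sedentary mice. The log2 differences were 0.51 on LF (limma adjusted p = 0.0442) and 0.69 on HF (adjusted p = 0.0102), and their mean was 0.60 (SE 0.0989, adjusted p = 0.00245). A second probe set of Pdia6, with a mean of 91.6, was at the dim limit and moved in the same direction by 0.14. With the mean of the probe sets in place of the brightest, the difference of Pdia6 was 0.37 over both diets and 0.39 on HF, still called, and over both diets below the 0.48 of Calr.

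Pdia3, the isomerase that works with calreticulin and calnexin, rose by a mean of 0.30 over both diets (limma adjusted p = 0.0134) without passing in either diet alone. Its means were 2158 ± 107 in LF and 2628 ± 209 in LF+CR (SD, n = 3), and 2431 ± 104 in HF and 3023 ± 98.6 in HF+CR. P4hb, the founding disulfide isomerase, rose in LF+CR alone, from 5090, 4935 and 5087 to 5680, 6392 and 5888. That difference was 0.25 (limma adjusted p = 0.0358), and in HF+CR, at 0.08, P4hb did not pass. The difference between the diets in this response was not called. Canx, the membrane-bound partner of calreticulin, Pdia4 and Ero1b, an oxidase that recharges the isomerases, had mean differences of 0.15, 0.19 and 0.31 and were not called.

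Among the 9 lumenal chaperones and cofactors, 0 passed in LF+CR and 2 in HF+CR, with 8 and 9 of 9 above 0. Sdf2l1, a cofactor that keeps the chaperone BiP and its clients soluble, read 256, 240 and 260 in HF and 538, 412 and 411 in HF+CR, without overlap. It rose by 0.80 on the log2 scale, or 1.74-fold (SE 0.186, limma adjusted p = 0.0207), the largest difference of any member in that comparison. In LF it read 191, 281 and 265 and in LF+CR 267, 323 and 364. Those groups overlapped, and the difference was not called. Its intensities are low, so the added 16 shrinks these folds somewhat.

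Dnajb11, a co-chaperone that hands unfolded proteins to BiP, read 725, 734 and 784 in HF and 1006, 1021 and 943 in HF+CR. It rose by 0.40 (limma adjusted p = 0.0343). In LF it was nearly the same in 3 mice, at 734, 745 and 744, and in LF+CR it read 779, 827 and 879, all higher but not called on their own. The mean over both diets was 0.28 (adjusted p = 0.0402). Hsp90b1, the lumenal HSP90 known as GRP94, rose over both diets by 0.22 (limma adjusted p = 0.0361), with 3253 ± 256 in LF, 3826 ± 81.3 in LF+CR, 3593 ± 246 in HF and 4162 ± 265 in HF+CR (SD, n = 3).

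Hspa5 encodes BiP, the master chaperone of the compartment and the usual marker of the unfolded protein response. Under restriction it did not pass the test. The arrays read 3557, 3904 and 4486 in LF, 4296, 4624 and 4884 in LF+CR, 4628, 3956 and 4794 in HF, and 5591, 5027 and 4373 in HF+CR. Groups overlapped on both diets, and the mean difference of 0.19 had a 95% interval of -0.03 to 0.40 (limma adjusted p = 0.326). A rise like that of Hsp90b1 lies within this interval. Another well-lit probe set of Hspa5, with a mean of 2950, differed by 0.28 in LF+CR and 0.21 in HF+CR. A dimmer one, with a mean of 434, differed by 0.04 and 0.21. The other uncalled chaperones were Manf, Dnajb9, Hyou1, Dnajc3 and Creld2, with mean differences from 0.12 to 0.43. Of these Manf, a secreted factor released under stress, lay higher without overlap on both diets.

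The 3 translocation genes lay above 0 on both diets. Sec61a1, the pore subunit of the channel, read 1185, 1130 and 1182 in LF and 1573, 1807 and 1554 in LF+CR, a gap wider than either group. It rose by 0.49, or 1.4-fold (SE 0.0964, limma adjusted p = 0.00678), the lowest adjusted p among the members in that comparison. It read 1232, 1196 and 1191 in HF and 1449, 1557 and 1476 in HF+CR, again without overlap, but the difference of 0.30 was not called (adjusted p = 0.0737). All 5 other probe sets of Sec61a1 above the dim limit moved in the same direction in LF+CR, by 0.31 to 0.99. In HF+CR these 5 agreed less, at 0.28, 0.24, 0.06, -0.02 and 0.17. Sec61b, a small subunit of the same channel, rose over both diets by 0.38 (limma adjusted p = 0.0154), from 1542 ± 198 to 2066 ± 215 on LF and from 1609 ± 164 to 2046 ± 75.4 on HF (SD, n = 3). Ssr1, a translocon-associated protein, had a mean difference of 0.28 and was not called (adjusted p = 0.0587).

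Of the 8 genes of degradation from the endoplasmic reticulum, 2 rose in LF+CR, 1 in HF+CR and 3 over both diets. Edem1, a lectin that picks misfolded glycoproteins for removal, read 880, 842 and 901 in LF and 1237, 1036 and 1015 in LF+CR. In HF it read 788, 843 and 895 and in HF+CR 1120, 1098 and 943. It rose by 0.32 on each diet, with limma adjusted p-values of 0.0492 and 0.0472, close to the threshold. The highest adjusted p over the alternatives was 0.279 on LF and 0.199 on HF. Its mean over both diets had an adjusted p of 0.00852 and stayed called in 26 of 26 alternatives. A second probe set of Edem1 with nearly the same brightness differed by 0.43 in LF+CR and 0.27 in HF+CR.

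Selenos, a selenoprotein of the retrotranslocation complex, read 1407, 1412 and 1252 in LF and 1614, 1931 and 1809 in LF+CR. It rose by 0.39 (limma adjusted p = 0.021), while HF and HF+CR means of 1358 and 1519 did not differ beyond the threshold. Derl2, a derlin of the same complex, rose over both diets by 0.24 (limma adjusted p = 0.0149), with HF arrays at 1664, 1622 and 1664 and HF+CR arrays at 1930, 1903 and 1928. Its relative Derl1 lay in the opposite direction in HF+CR, at 955, 867 and 977 against 1249, 1032 and 1316 in HF, a log2 difference of -0.35 that did not pass (adjusted p = 0.0854). The 3 other probe sets of Derl1 gave 0.01, -0.05 and 0.02, so this direction rests on 1 of 4. Sel1l and Syvn1, the core of the ubiquitin ligase, Herpud1, which recruits it, and Derl3 had mean differences of 0.07 to 0.22 and were not called. Across all roles, 32 of 32 comparisons of a called member with another of its probe sets above the dim limit had the same sign, the Ern1 interaction described next included. A probe set counts once for each comparison in which its gene was called, and pairs that were not called do not enter. Sizes could differ: a second probe set gave 0.10 beside 0.69 for Pdia6 in HF+CR, and 0.05 beside 0.94 for the Ern1 interaction.

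**Figure D2:**
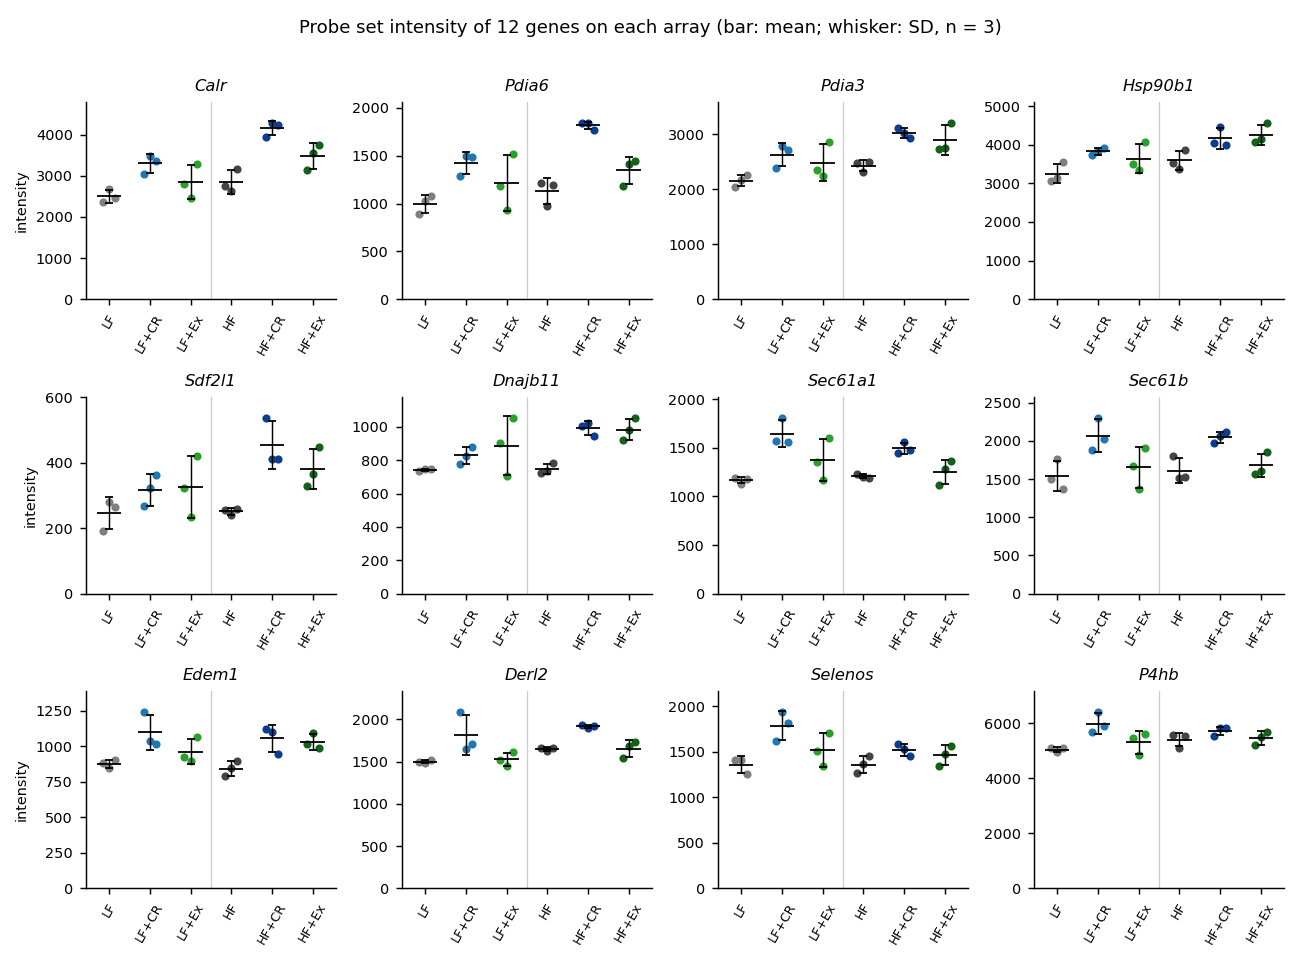
Intensity of 12 genes on each array by group, with the mean (bar) and the SD of 3 arrays (whisker). Vertical axes are linear and start at 0. The 12 are the 11 genes called over both diets and P4hb. Pdia6 shows all 6 restricted arrays above all 6 arrays of freely fed sedentary mice. Calr shows this within each diet, but LF+CR 1 lies below HF 3.

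Of the 9 sensors and transcription factors 0 were called in LF+CR or HF+CR, where 2.3% and 3.52% of all genes rose. Of these 9, 4 and 5 lay above 0, with medians of -0.08 and 0.10. At an unadjusted p under 0.05, 14 of the 36 genes passed in LF+CR and 16 in HF+CR, where 18.6% and 25.5% of all genes did. Xbp1, the factor whose RNA IRE1 splices, was at 3360 ± 307 in LF, 3168 ± 390 in LF+CR, 3207 ± 285 in HF and 3464 ± 222 in HF+CR (SD, n = 3). Its mean difference under restriction was 0.01, with a 95% interval of -0.13 to 0.16, but this averages opposite directions on the diets. Other probe sets of Xbp1, with means of 2793 and 2448, gave -0.15 and -0.12 in LF+CR, and 0.30 and 0.18 in HF+CR. A dimmer one, with a mean of 232, gave 0.01 and 0.03. Atf6 was at 505 ± 110 in LF, 468 ± 63.3 in LF+CR, 461 ± 37.8 in HF and 447 ± 33.0 in HF+CR. Whether these genes respond differently from the chaperones was not tested.

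The branch that runs through PERK likewise held no call. Eif2ak3, which encodes PERK, was at 230 ± 56.1 in LF and 330 ± 49.7 in LF+CR, and at 317 ± 87.9 in HF and 300 ± 67.6 in HF+CR (SD, n = 3). Atf4, the factor translated when PERK or its sister kinases act, was at 788 ± 83.5 in LF and 1020 ± 234 in LF+CR, where array LF+CR 1 alone read 1260. Ddit3, the death-linked target of ATF4 also called CHOP, read 166, 156 and 157 in LF and 217, 201 and 194 in LF+CR without overlap, but the log2 difference of 0.32 was not called (limma adjusted p = 0.426). In HF and HF+CR Ddit3 overlapped, at 195 ± 29.8 and 178 ± 16. Trib3, Atf3 and Ppp1r15a, the phosphatase subunit that ends the response, were not called in any comparison.

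Ern1, which encodes IRE1, was the only member called for a difference between the diets in its response to restriction. At an unadjusted p under 0.05, 3 of 36 genes passed for this difference, beside 23.7% of all genes. Ern1 read 1145, 807 and 809 in LF and 650, 591 and 621 in LF+CR, where every restricted mouse was lower. In HF it read 670, 750 and 743 and in HF+CR 871, 932 and 1068, where every restricted mouse was higher. The response on HF minus that on LF was 0.94 on the log2 scale (SE 0.217, limma adjusted p = 0.02), and 3.35% of all genes were called in this direction. Neither diet alone passed, with -0.54 on LF (adjusted p = 0.0525) and 0.40 on HF (adjusted p = 0.126). The interaction was 0.85 and no longer called without the 3 outlying arrays (adjusted p = 0.113), and 0.89 without HF 1 (adjusted p = 0.0593). The 3 other probe sets of Ern1, with means of 197, 99.3 and 98.6, gave 0.05, 0.06 and 0.20, the mean of the probe sets gave 0.26, and the last pair lay near the dim limit of 88.2 to 97.6.

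**Figure D3:**
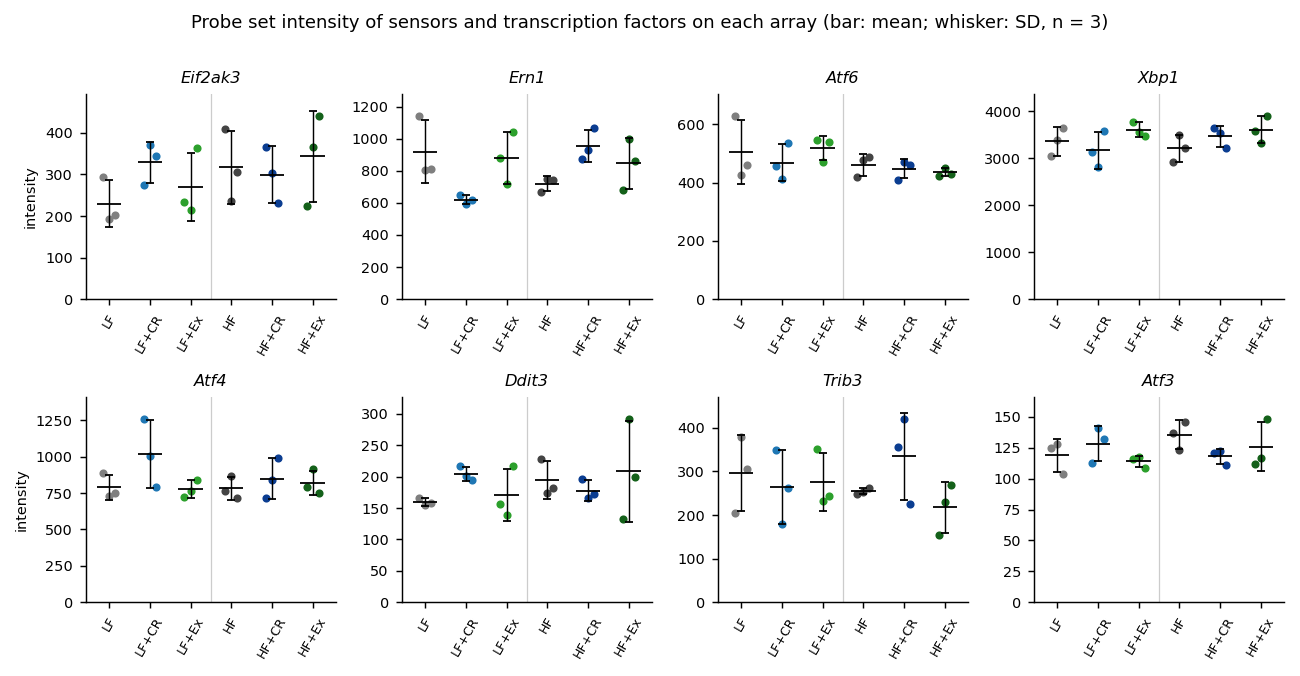
Intensity of 8 sensors and transcription factors on each array by group, with the mean (bar) and the SD of 3 arrays (whisker), on linear axes that start at 0. Ern1 lies lower in LF+CR than in LF and higher in HF+CR than in HF, while Xbp1 and Atf6 overlap between all neighbouring groups.

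Running gave no call: 0 of 36 genes passed in LF+Ex against LF, where 0.00704% of all genes rose, and 0 in HF+Ex against HF, where 0% of all genes did. At an unadjusted p under 0.05, 7 of 36 genes passed in LF+Ex and 13 in HF+Ex, all of them higher, where 3.95% and 2.45% of all genes did in either direction. Averaged over both diets 0 genes passed (0% of all genes rose), 16 had an unadjusted p under 0.05 (3.63% of all genes), and the median of the 36 was 0.15 beside -0.01. The difference lay above 0 for 32 of 36 genes in LF+Ex, beside 41.6% of all genes, for 31 in HF+Ex, beside 45.5%, and for 32 over both diets, beside 40.9%. No gene lay lower without overlap in LF+Ex or HF+Ex, where 6.01% and 4.3% of all genes did. Without LF+Ex 2, 2 genes passed. The genes named next for running were chosen after their values were seen.

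On the diet with 60% fat, 15 of 36 genes lay higher in every runner than in any sedentary mouse, where 3.82% of all genes did, and 8 of the 9 lumenal chaperones were among them. Creld2, a stress-induced disulfide isomerase, read 614, 558 and 631 in HF and 1044, 1175 and 1317 in HF+Ex, a log2 difference of 0.95 with a 95% interval of 0.51 to 1.39. It also had the lowest limma adjusted p of the list over both diets, 0.461. Manf read 1364, 1054 and 1289 in HF and 1569, 2022 and 2366 in HF+Ex. Hspa5 read 4628, 3956 and 4794 in HF and 4954, 6114 and 6422 in HF+Ex, a difference of 0.38. Syvn1, the ubiquitin ligase of the compartment, had a difference of 0.69, Sdf2l1 0.56, Pdia4 0.41 and Dnajb11 0.39, and none of these passed.

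On the diet with 10% fat, 1 of 36 genes lay without overlap in LF+Ex, beside 2.82% of all genes, and no gene did so on both diets, beside 0.218%. The runners on this diet differed from each other. LF+Ex 3 was the highest of its group in 29 of 36 genes, beside 26.1% of all genes, and LF+Ex 2 the lowest in 31, beside 32.4%. Hspa5, for example, read 4723, 3842 and 5794. Array LF+Ex 3 was also that with the highest plasma and B cell marker sum and one of the 4 with Clps. Its difference of Arntl and Dbp, clock genes of opposite phase, was -0.66 on the log2 scale against -4.32 to -1.88 on the other arrays. Counts that moved with a clock covariate or without the 4 arrays with Clps are given at the end. These fits do not separate the influences, and the part of plasma and B cell transcripts was not tested. In HF+Ex, HF+Ex 1 was the lowest in 30 genes, beside 32.4% of all genes. It too carried Clps and plasma cell transcripts, though LF+Ex 3 with these transcripts was mostly the highest of its group.

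**Figure D4:**
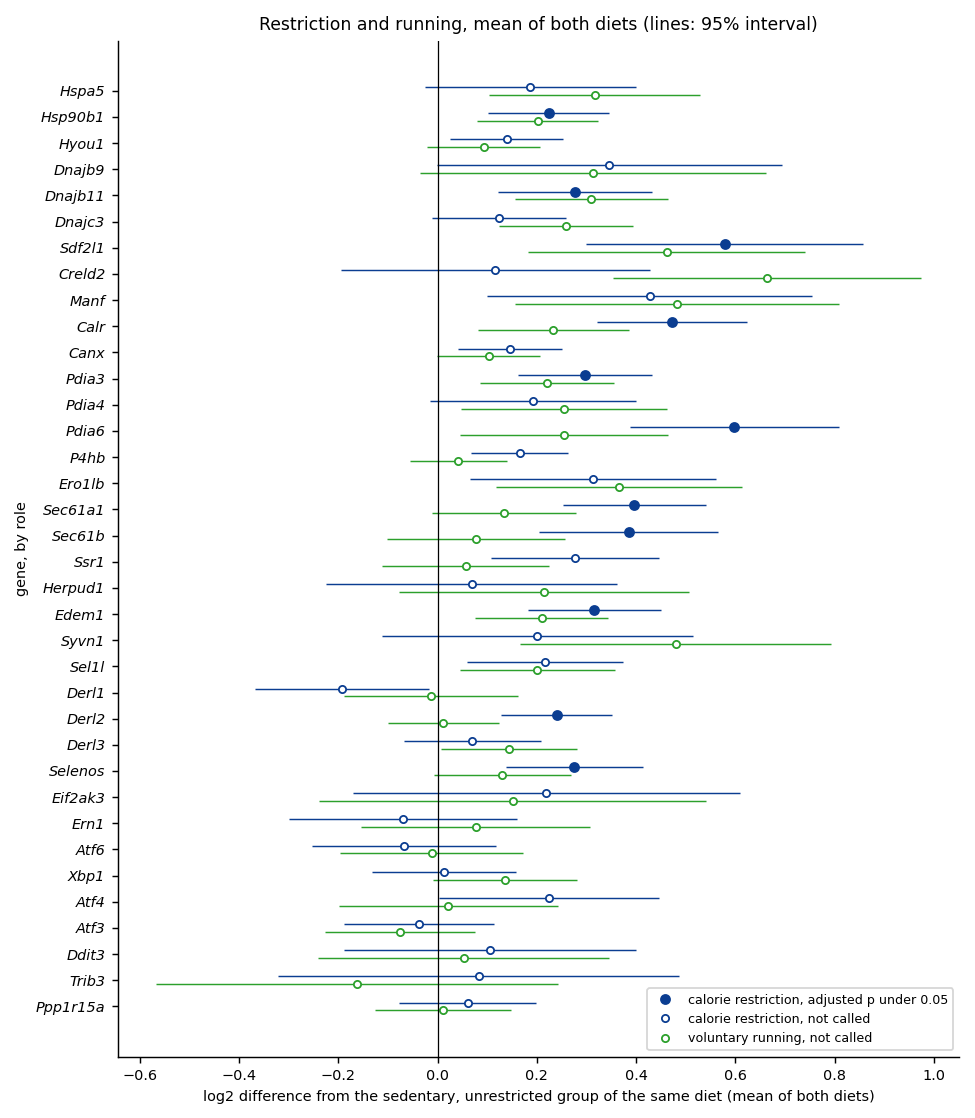
Log2 difference of each gene from the freely fed sedentary group of the same diet, averaged over both diets, for restriction (blue) and running (green), with 95% intervals. Filled points passed an adjusted p of 0.05. Restriction gave 11 filled points, from 0.22 to 0.60, and running none, with Creld2 furthest to the right at 0.66.

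Restriction and running were also set against each other within each diet, in contrasts that leave out the LF and HF groups but take the spread from all 18 arrays. In LF+CR against LF+Ex 0 of 36 genes passed (4.16% of all genes rose and 5.15% fell), and 10 had an unadjusted p under 0.05, beside 23.7% of all genes. In HF+CR against HF+Ex 0 passed (1.4% of all genes rose and 1.31% fell), and 9 had an unadjusted p under 0.05, beside 22.4%. The medians were 0.08 and 0.04. The difference lay above 0 for 19 of 36 genes on LF, beside 53.7% of all genes, and for 22 on HF, beside 62.8%. Without overlap, 2 genes were higher in LF+CR than in LF+Ex (14.6% of all genes) and 1 lower (12.8%), and 7 were higher in HF+CR than in HF+Ex (18.5%) and 1 lower (10.1%). For Creld2 the difference was -0.50 on LF and -0.60 on HF, and for Pdia6 it was 0.43 on HF, with 95% intervals of -0.94 to -0.06, -1.04 to -0.16 and 0.14 to 0.73. None of these passed, and a missed threshold does not show that the interventions act alike. With array weights 5 genes passed on each diet, and with a clock covariate 5 passed on LF.

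Dietary fat alone gave no call. In HF against LF 0 of 36 genes passed, where 0.627% of all genes rose and 0.268% fell, and 3 had an unadjusted p under 0.05, beside 16.3% of all genes. The median was 0.05 beside -0.03, and 22 of 36 genes lay above 0, beside 42.4% of all genes. Hspa5 was at 3982 ± 469 in LF and 4460 ± 444 in HF (SD, n = 3), with overlap. Derl1 had the lowest limma adjusted p, 0.222, at 932, 978 and 985 in LF and 1249, 1032 and 1316 in HF. The 3 other probe sets of Derl1 gave -0.001, 0.09 and -0.03 on the log2 scale, so this difference rests on the probe set used.

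Other genes of the secretory route were counted from lists of their own, again for restriction averaged over both diets, where 2.06% of all genes rose and 2.7% fell. Of 19 further translocation genes 8 rose and 1 fell. Spcs3, a signal peptidase subunit, rose by 0.42 (limma adjusted p = 6.2e-05), Ssr4, a translocon-associated protein, by 0.28, and Srpr, the receptor of the signal recognition particle, by 0.27. Sec61a2, the minor pore subunit, fell by 0.30. Of 19 genes of N-glycosylation and glycan trimming 6 rose and 0 fell, among them Ddost of the oligosaccharyltransferase (0.35), Uggt1, the sensor of glycoprotein folding (0.35), and Lman1, a cargo receptor (0.20). Of 20 other folding enzymes 3 rose and 0 fell: Ppib, a prolyl isomerase, from 2582 to 3653 in HF+CR and by 0.37 over both diets (adjusted p = 0.000947), Erp44 by 0.21 and Sil1, an exchange factor of BiP, by 0.17.

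The routes out of the compartment and the stress branches held fewer calls. Of 19 further degradation genes 1 rose (Edem2, 0.19) and 0 fell, and of 19 genes of COPII export 1 rose (Sec13, 0.20) and 0 fell. Of 26 targets of ATF4 and the integrated stress response 1 rose (Psat1, a serine synthesis enzyme, 0.26) and 1 fell (Atf5, by 0.53). Of 15 other stress sensors and regulators 0 rose and 1 fell, Creb3l3, a membrane-bound factor of the liver. It was at 2619 in LF and 1916 in LF+CR, a log2 difference of -0.45 (limma adjusted p = 0.000394). Its response also differed between the diets, by 0.44 (adjusted p = 0.00798).

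Markers of other cells were set beside the rises. Hepatocyte marker sums were higher under restriction without overlap, at 96758 to 98649 in LF+CR against 90598 to 91365 in LF and at 92101 to 95604 in HF+CR against 85424 to 90240 in HF. Of 10 hepatocyte genes 2 rose on each diet, Tat and Cps1, both enzymes of amino acid breakdown. Kupffer cell and macrophage sums were 6731 to 8112 in HF+CR and 8868 to 13620 in HF, with 0 of 11 genes called, and they overlapped on LF, at 8121 to 14593 in LF+CR and 7052 to 11547 in LF. Sinusoidal endothelial sums were lower without overlap in HF+CR, at 4842 to 5142 against 5340 to 5572 in HF, and 2 of 10 genes fell there, Lyve1 by 1.10 (limma adjusted p = 0.00987) and Fcgr2b by 0.31 (adjusted p = 0.0266). Stellate cell sums were also lower without overlap in HF+CR, at 5998 to 6449 against 6606 to 7414, with 0 of 10 called. On LF both of these lists overlapped between restricted and freely fed mice, with 0 called. Plasma and B cell sums overlapped between restricted and freely fed mice on both diets, with 0 of 7 called. Pancreatic acinar sums were higher without overlap in HF+CR, at 3100 to 3847 against 2085 to 2294 in HF, and overlapped on LF. Of 15 pancreatic acinar genes 1 rose in HF+CR, Cela1, while Clps stayed at 57.7 to 61.8 there. Cholangiocyte sums were 347 to 772 in HF+CR and 319 to 346 in HF, a narrow gap, and overlapped on LF, with 0 of 3 called. T and NK cell sums overlapped between restricted and freely fed mice on both diets, with 0 of 10 called. The part of cell composition in the rises was not tested.

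The spread between mice sets how small a change could be seen. The SD within groups had a median of 0.15 on the log2 scale over the 36 genes and 0.11 over all genes. It was lowest for P4hb (0.07) and Canx (0.08) and highest for Trib3 (0.37), Eif2ak3 (0.36), Dnajb9 (0.32) and Manf (0.30). Group means ranged over 0.98 for Creld2, 0.86 for Pdia6, 0.85 for Sdf2l1 and 0.73 for Calr, and over 0.19 for Xbp1. LF had the lowest group mean for all of the 12 genes called by the F-test but Creld2 and Edem1, while the highest was HF+CR for Calr, Pdia3, Pdia6, Dnajb11, Sdf2l1 and Derl2, LF+CR for Sec61a1, Edem1 and Selenos, and HF+Ex for Hsp90b1, Pdia4 and Creld2.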

How the data were processed

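The deposited table held 1 intensity per probe set and array on a linear scale, summarised and scaled by the authors. The tool they used is not given in the sources used here. Trizol was used to extract the RNA, which was labelled with biotin, per the labels' protocols. Of 45101 probe sets, 64 controls, 932 with several gene symbols and 9160 with none were left out. Values were taken as log2(intensity + 16). Genes entered the test when their probe set exceeded the 40th percentile of an array on at least 3 arrays. limma 3.58.1 in R 4.3.3 fitted 1 mean per group to 18 arrays (12 residual and 3.64 prior degrees of freedom), with Benjamini-Hochberg adjustment over 14201 genes and a threshold of 0.05. The script was tested on simulated data. For arrays, their number limits the precision.

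The 36 genes, the other lists and the alternatives were chosen with earlier results of these data known. Genes called in a comparison of a pair of groups or a mean of both diets were described in full. Central genes (Hspa5, Xbp1, Atf4, Ddit3, Eif2ak3, Ern1, Atf6) were named regardless, as were up to 3 called genes of each other list. Alternatives were quantile normalization, median centring, offsets of 1 and 64, no dim filter, the mean of probe sets, array weights, fits limited to the groups being compared, a trended robust variance, a replicate block, and each array left out. Fits without the 3 or the 4 arrays that stood apart, with a clock covariate, and with probe sets chosen by mean intensity were added after seeing the data.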

Additional observations from a re-analysis of the deposited data

Results flagged for a closer look

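The response of Ern1 to restriction differed between the diets, by 0.94 on the log2 scale (limma adjusted p = 0.02, lower in 3 of 3 restricted mice on LF and higher in 3 of 3 on HF). Over its alternatives the difference ranged from 0.26, with the mean of the probe sets, to 1.02, and the adjusted p from 0.00769 to 0.113. The value came from 1 of 4 probe sets of the gene.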

How the results depend on the processing

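Over 532 combinations of a called gene, its comparison and an alternative, 425 kept their side of the threshold, 107 lost it and 0 reversed. Only pairs called in the main fit entered, on mostly the same arrays, so a reversal was hardly possible. Counts of members called moved by more than 1.5 times as follows. With array weights they were 2 in HF vs LF, 9 in HF+CR vs HF, 5 in LF+CR vs LF+Ex, 5 in HF+CR vs HF+Ex and 20 in the F-test. With median centring they were 3 in LF+CR vs LF and 3 in HF+CR vs HF, and with only the compared groups 1 in LF+CR vs LF. Without the 3 outlying arrays they were 2 in LF+CR vs LF, 2 in HF+CR vs HF, 1 in LF+CR vs LF+Ex, 7 for restriction over both diets, 0 for restriction by diet and 5 in the F-test. Without the 4 arrays with Clps they were 2 in LF+CR vs LF, 9 in HF+CR vs HF and 3 in LF+CR vs LF+Ex. With the clock covariate they were 8 in HF+CR vs HF and 5 in LF+CR vs LF+Ex. In LF+CR vs LF+Ex they were also 1 with quantile normalization, 1 with an offset of 64, 1 with probe sets chosen by mean intensity and 3 with the mean of probe sets. Apart from the settings with fewer arrays, the cause was not tested.

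With each mouse left out in turn, counts ranged from 1 to 5 in LF+CR vs LF, 2 to 5 in HF+CR vs HF, 7 to 11 for restriction over both diets, 0 to 2 for running over both diets, 0 to 2 for restriction by diet, 0 to 2 in LF+CR vs LF+Ex and 8 to 17 in the F-test, and from 0 to 0 in the other comparisons. The count for running was 2 without LF+Ex 2, that for restriction by diet 0 without HF 1 and 2 without LF 2, and that for LF+CR vs LF+Ex 2 without LF+CR 3. The median of the members stayed above 0 in 26 of 26 settings for restriction (0.16 to 0.23) and for running (0.12 to 0.20). Replicate numbers did not pair the arrays: of 21 correlations of deviations 3 exceeded 0.1, and they ran from -0.36 to 0.29. With the replicate block, members called were 4 in LF+CR vs LF, 5 in HF+CR vs HF, 11 for restriction and 10 in the F-test.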
